A study of Homo sapiens with 8 samples.

Results

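Plasminogen activators and the thrombomodulin system were described through 9 genes in OVISE, a cell line derived from an ovarian clear cell carcinoma. The genes are PLAT, PLAU, PLAUR, SERPINB2, THBD, PROCR, F3, TFPI and TFPI2, and the rows of the deposited table of 27757 loci were found by matching its transcript accessions to gene symbols. Each of the 9 had 1 row. The genes were chosen by their family and with earlier fold changes and calls from the same 8 libraries known, so their levels and differences in every comparison are given as a description, without p-values.

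Libraries came from 4 groups of 2. SYK-KO EGF cells had SYK knocked out and received epidermal growth factor (EGF), the ligand of the receptor EGFR, at 50 ng/ml for 24 h. SYK-KO cells had the knockout and no treatment, SYK-WT EGF cells carried wild-type SYK and received the same EGF, and SYK-WT cells carried wild-type SYK and no treatment. The knockout was made with paired guides against exon 2 of SYK, a non-receptor tyrosine kinase, and a Cas9 nickase carried on a puromycin-selected plasmid, followed by picking of single-cell clones. The number of knockout clones used is not given, nor whether the wild-type cells had been cloned, so genotype and clone cannot be told apart. Nothing in the labels ties the paired libraries to separate cultures, so p-values measure the spread between libraries, which may be technical. In bulk RNA a lower level cannot be separated into fewer cells of a type and less RNA per cell.

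The plasminogen activators are serine proteases that cut plasminogen to plasmin, which dissolves fibrin and degrades matrix. Urokinase works on the cell surface through its receptor, while tissue-type activator is best known from clot lysis, and serpins inhibit both. The other genes belong to the start and the brake of coagulation: tissue factor starts the cascade, its pathway inhibitors stop it, and thrombomodulin with the endothelial protein C receptor turns thrombin toward activation of protein C. Ovarian clear cell carcinoma is known for thrombosis in patients and for high tissue factor.

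Series-wide values were as follows. The depth, estimated from the worth of a single fragment at low loci, lay between about 22800000 and 26900000 fragments. SYK transcript was still present, at 2.80 to 3.43 FPKM (fragments per kilobase of transcript, scaled to library size) in SYK-KO libraries with or without EGF and 3.62 to 5.30 FPKM in SYK-WT libraries, and the labels give an immunoblot as the check of the knockout. Among 8 fixed epithelial and clear cell carcinoma markers, NAPSA stood at 0.787 to 1.26 FPKM in SYK-KO libraries and 4.16 to 5.37 FPKM in SYK-WT libraries. CDH1 stood at 30.7 to 44.5 and 61.4 to 90.8 FPKM in that order, and the other markers overlapped between genotypes. All 8 markers reached 1 FPKM in at least 2 libraries. Since tissue-type activator, thrombomodulin and the protein C receptor are known as endothelial products, 9 endothelial markers were read too: 0 of 9 reached that level, the highest single value was 0.336 FPKM, and their sum lay between 0.288 and 0.718 FPKM in all 8 libraries, with PECAM1 at no more than 0.0283 FPKM. EGFR stood at 45.9 and 55.2 FPKM in SYK-KO EGF, 41.8 and 47.6 FPKM in SYK-KO, 54.3 and 58.1 FPKM in SYK-WT EGF and 36.4 and 50.7 FPKM in SYK-WT cells. Summed haematopoietic markers stayed at 0.377 to 0.673 FPKM and fibroblast markers at 0.117 to 0.388 FPKM.

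Promoter sequence was read for the members because several of them moved together with EGF, a stimulus known to act through the AP-1 factors. From the RefSeq table of GRCh38.p14, 8 windows of 250 bases before to 50 after a start were read for 7 of the 9 genes. None was read for PLAT or THBD. The AP-1 letters TGANTCA, searched on both strands, stood in the windows of 4 genes (PLAUR, F3, TFPI2 and SERPINB2) and in 7.71% of all 35116 windows of the table. The 250 bases before the start are shown for PLAUR (chr19:43670170-43670419, minus strand), F3 (chr1:94541760-94542009, minus strand), SERPINB2 (chr18:63887455-63887704, plus strand) and the second of the PLAU starts (chr10:73910882-73911131, plus strand), as examples with and without the letters. They run 5′ to 3′ on the strand of the gene, with AP-1 matches in capitals.
PLAUR: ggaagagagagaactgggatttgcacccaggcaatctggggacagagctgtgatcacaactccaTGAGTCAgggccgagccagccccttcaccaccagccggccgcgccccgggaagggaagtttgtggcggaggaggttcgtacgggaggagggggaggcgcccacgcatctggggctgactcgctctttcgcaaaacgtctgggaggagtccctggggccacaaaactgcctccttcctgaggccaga
F3: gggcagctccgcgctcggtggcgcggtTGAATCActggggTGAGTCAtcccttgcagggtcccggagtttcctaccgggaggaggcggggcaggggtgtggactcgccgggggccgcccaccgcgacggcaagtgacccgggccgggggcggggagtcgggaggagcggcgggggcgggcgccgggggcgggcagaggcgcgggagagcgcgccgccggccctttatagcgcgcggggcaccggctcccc
SERPINB2: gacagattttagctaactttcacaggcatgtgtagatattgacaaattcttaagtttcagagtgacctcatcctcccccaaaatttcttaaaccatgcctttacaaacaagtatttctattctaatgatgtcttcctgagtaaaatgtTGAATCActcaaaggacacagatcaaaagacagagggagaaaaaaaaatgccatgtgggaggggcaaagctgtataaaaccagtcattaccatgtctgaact
PLAU: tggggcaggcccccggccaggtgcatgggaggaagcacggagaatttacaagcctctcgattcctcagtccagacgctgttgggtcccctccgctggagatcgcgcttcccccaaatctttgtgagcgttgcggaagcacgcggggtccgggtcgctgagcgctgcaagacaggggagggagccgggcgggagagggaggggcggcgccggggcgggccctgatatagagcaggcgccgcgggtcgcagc
F3 held the letters at -223 to -217 and at -210 to -204, counted so that -1 is the base before the start. PLAUR held them at -186 to -180, SERPINB2 at -102 to -96 and TFPI2 at -87 to -81, and neither window of PLAU, nor that of TFPI or PROCR, held them. The SP1 letters GGGCGG stood in F3, TFPI2, PROCR and the second PLAU window (45% of all windows), and the EGR1 letters GCGTGGGCG or GCGGGGGCG in F3, TFPI2 and PLAUR (5.77%). In F3 and TFPI2 the EGR1 match overlapped an SP1 match. Overlapping the EGR1 match of PLAUR, and also present in TFPI, was the NF-kappaB motif (25.6%), while TATAAA stood in F3, SERPINB2 and PROCR (11.5%). The CRE letters TGACGTCA (1.85% of all windows), ETS CCGGAAG (10.3%), TEAD GGAATG (14%) and the SRF motif (1.29%) were not in these windows of the members.

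The first question is what EGF did to these genes in each genotype. EGF raised the thrombomodulin, urokinase, urokinase receptor, tissue-type activator and TFPI transcripts in both genotypes. TFPI2 was 1.5-fold higher with EGF in SYK-KO cells, not past the threshold below, and 1.39-fold higher in SYK-WT cells, past it. Its responses differed by 0.08 on the log2 scale, SYK-KO minus SYK-WT, and that difference was not past the threshold. Tissue factor and the protein C receptor stayed near their untreated levels, and PLAT moved far less in SYK-KO than in SYK-WT cells. The rises of PLAT in SYK-KO cells and of TFPI and TFPI2 were not past the threshold in every alternative run. Of the 8 members tested, 5 were past the threshold in SYK-KO cells and 6 in SYK-WT cells, all of them higher. The threshold was a Benjamini-Hochberg adjusted p of 0.05 from limma over 12112 loci, and it called 11.8% of all loci in SYK-KO cells (6.67% higher, 5.13% lower) and 26.7% in SYK-WT cells (14.7% higher, 12.1% lower). Nothing is read from these counts, because the genes were chosen with these comparisons known. Each of the 8 was above 1 FPKM in every library, so none entered the test through the group where it was high.

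**Figure D1:**
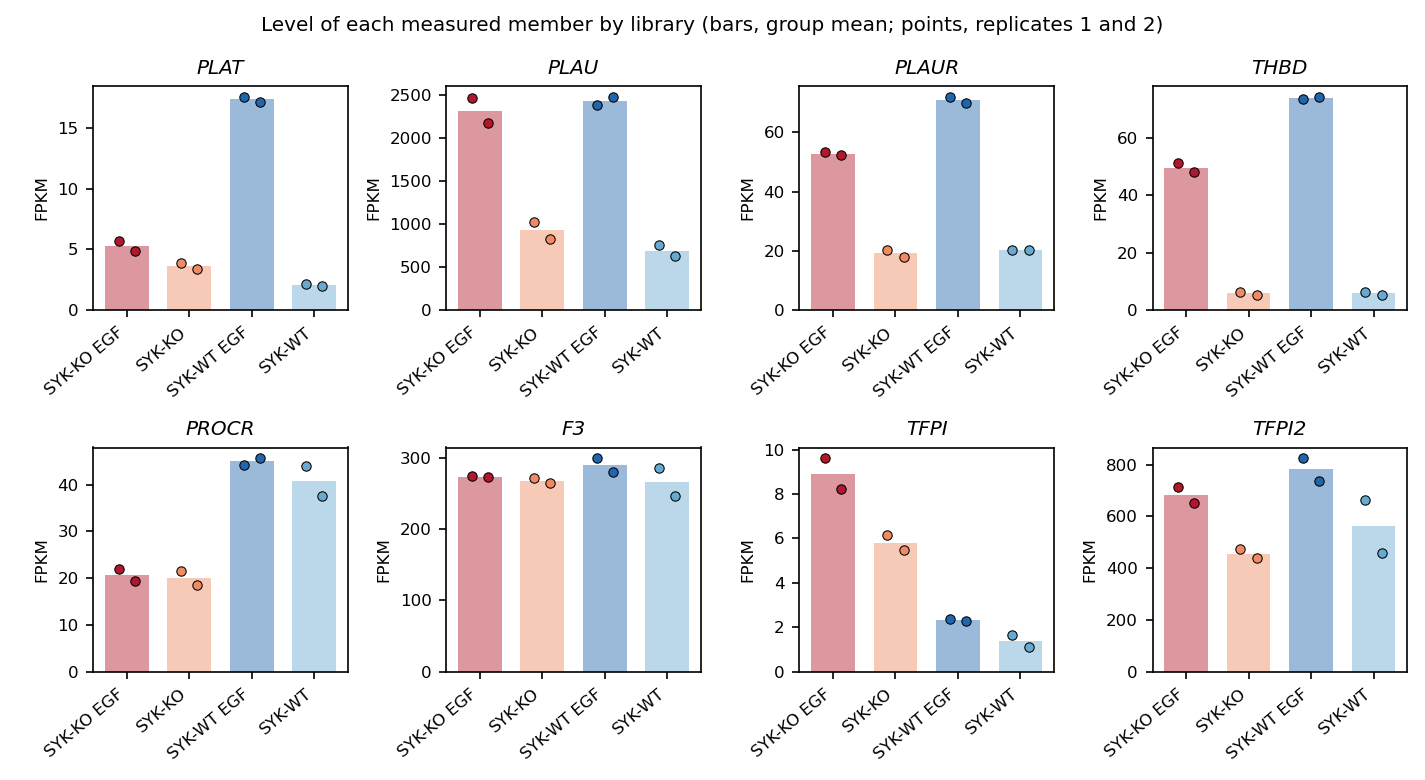
Level in FPKM (linear axis from 0) of the 8 measured members in SYK-KO EGF, SYK-KO, SYK-WT EGF and SYK-WT cells, with bars for the group mean and points for replicates 1 and 2. PLAT stood at 17.4 FPKM in SYK-WT EGF cells and no higher than 5.69 FPKM in any other library, while PROCR and TFPI parted by genotype.

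PLAT encodes tissue-type plasminogen activator (chromosome 8). In SYK-KO EGF cells it stood at 5.69 and 4.84 FPKM, against 3.88 and 3.42 FPKM in SYK-KO cells. In SYK-WT EGF cells it stood at 17.6 and 17.2 FPKM, against 2.16 and 1.99 FPKM in SYK-WT cells. The 4 groups did not overlap, and their order was SYK-WT EGF, SYK-KO EGF, SYK-KO, SYK-WT. EGF thus raised PLAT 1.44-fold in SYK-KO cells (log2 fold change 0.43 ± 0.0919 SE on the scale of FPKM + 1, n = 2 libraries per group) and 8.38-fold in SYK-WT cells (2.58 ± 0.0919), and the responses differed by -2.15 ± 0.13, SYK-KO minus SYK-WT. The genotype difference itself turned round with EGF: PLAT was 1.76-fold higher in SYK-KO than in SYK-WT cells without treatment (0.59 ± 0.0919) and lower with it (-1.56 ± 0.0919), at 0.302 times the SYK-WT EGF level. The call for EGF in SYK-KO cells ended without either SYK-KO library, either SYK-WT EGF library or SYK-KO EGF replicate 1, where the log2 fold change lay between 0.33 and 0.50, and that for the difference of the responses ended without SYK-WT EGF replicate 1 (-2.14). The call for EGF in SYK-KO cells also ended when loci at any level were fitted (0.43). At the estimated depth, the level of PLAT in SYK-WT cells rests on about 120 to 150 fragments per library. That in SYK-WT EGF cells rests on about 1100 to 1200.

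PLAU, which encodes urokinase, was the most abundant member per length (chromosome 10, 75669726 to 75682535, hg19). It reached 2455.7 and 2169.5 FPKM in SYK-KO EGF cells, against 1023.2 and 827.9 FPKM in SYK-KO cells, and 2383.8 and 2476.1 FPKM in SYK-WT EGF cells, against 759.3 and 621.8 FPKM in SYK-WT cells. EGF-treated libraries of both genotypes lay above all untreated ones and overlapped each other, so the treated groups have no order. With EGF it was 2.5-fold higher in SYK-KO (log2 fold change 1.33 ± 0.129) and 3.52-fold in SYK-WT cells (1.82 ± 0.129). The difference of the responses, -0.50 ± 0.182, was not past the threshold. Untreated PLAU was 1.34-fold higher in SYK-KO than in SYK-WT cells (0.42 ± 0.129). That call ended without SYK-WT replicate 2 (0.28), without SYK-KO replicate 1 (0.27), without either SYK-WT EGF library, with only those groups in the fit, with library quality weights and when loci at any level were fitted. The locus also holds the entry C10orf55, listed at 1.68 to 6.13 FPKM.

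PLAUR encodes the receptor that holds urokinase on the cell surface (chromosome 19, 44150246 to 44174498, hg19). Its values were 53.3 and 52.2 FPKM in SYK-KO EGF cells, against 20.3 and 17.9 FPKM in SYK-KO cells, and 72.0 and 69.9 FPKM in SYK-WT EGF cells, against 20.1 and 20.3 FPKM in SYK-WT cells. Untreated groups overlapped, and with EGF both SYK-KO libraries lay below both SYK-WT libraries. PLAUR rose 2.76-fold in SYK-KO (1.42 ± 0.0718) and 3.52-fold in SYK-WT cells (1.76 ± 0.0718). With EGF it was lower in SYK-KO cells, at 0.743 times the SYK-WT level (-0.42 ± 0.0718), and the difference of the responses, -0.34 ± 0.102, was not past the threshold.

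THBD encodes thrombomodulin, the surface protein that binds thrombin and speeds activation of protein C (chromosome 20, 23026269 to 23030301, hg19). SYK-KO EGF cells held 51.2 and 47.9 FPKM, against 6.15 and 5.39 FPKM in SYK-KO cells, and SYK-WT EGF cells held 73.5 and 74.3 FPKM, against 6.32 and 5.30 FPKM in SYK-WT cells. The untreated genotypes overlapped and the treated ones did not. EGF raised THBD 8.59-fold in SYK-KO (2.90 ± 0.092) and 12.7-fold in SYK-WT cells (3.46 ± 0.092). With EGF the level in SYK-KO cells was 0.67 times that in SYK-WT cells (-0.57 ± 0.092). The difference of the responses was -0.56 ± 0.13 and not past the threshold with all libraries. Without SYK-WT replicate 1 it was past it, at -0.67, in a fit that called 867 loci in place of 1.

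**Figure D2:**
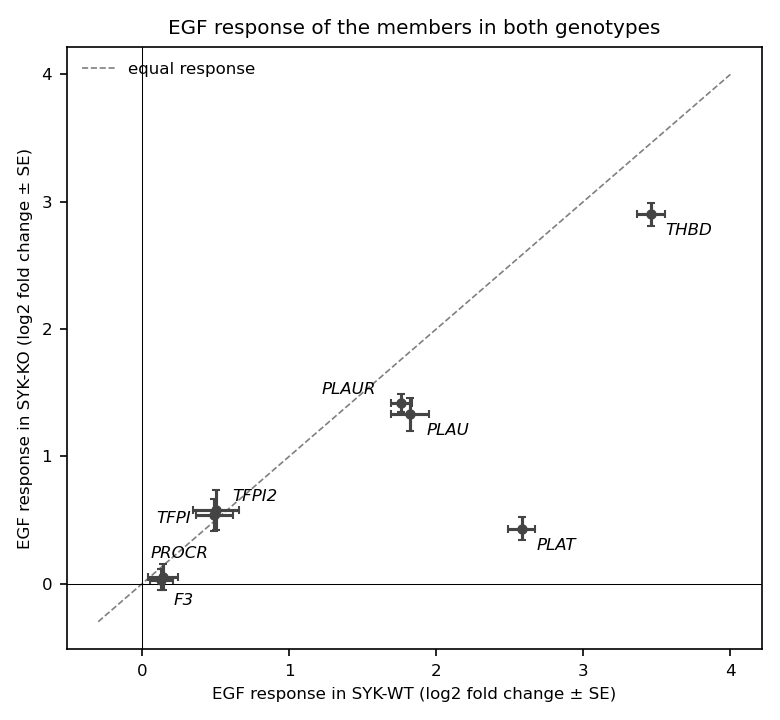
EGF response in SYK-KO cells against that in SYK-WT cells for the 8 measured members, both as log2 fold change ± SE of FPKM + 1, with a dashed line where the responses would be equal. PLAT lies at 2.58 in SYK-WT and 0.43 in SYK-KO cells, THBD, PLAU and PLAUR lie below the line by 0.56 to 0.34, and the other 4 lie within 0.10 of it.

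PROCR encodes the endothelial protein C receptor, which presents protein C to thrombin bound by thrombomodulin (chromosome 20, 33759739 to 33765165, hg19). It differed by genotype and hardly with EGF. Its values were 22 and 19.4 FPKM in SYK-KO EGF cells, 21.5 and 18.5 FPKM in SYK-KO cells, 44.3 and 45.7 FPKM in SYK-WT EGF cells and 44.0 and 37.7 FPKM in SYK-WT cells. All 4 SYK-KO libraries lay below all 4 SYK-WT libraries. PROCR was lower in SYK-KO cells with EGF, at 0.461 times the SYK-WT level (-1.08 ± 0.104), and without it, at 0.489 times, and every alternative run kept both calls. The EGF changes, 0.05 ± 0.104 in SYK-KO cells and 0.14 ± 0.104 in SYK-WT cells, were not past the threshold. Within the protein C system, THBD thus differed mostly with EGF and PROCR with genotype.

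TFPI, the pathway inhibitor that blocks the tissue factor and factor VIIa complex, ran the other way (chromosome 2, 188328956 to 188419232, hg19). It stood at 9.62 and 8.21 FPKM in SYK-KO EGF cells, 6.14 and 5.48 FPKM in SYK-KO cells, 2.37 and 2.28 FPKM in SYK-WT EGF cells and 1.66 and 1.11 FPKM in SYK-WT cells. No pair of groups overlapped. TFPI was 3.84-fold higher in SYK-KO cells with EGF (1.57 ± 0.126) and 4.2-fold higher without it (1.52 ± 0.126), and both calls held in every alternative run. EGF raised it 1.53-fold in SYK-KO (0.54 ± 0.126) and 1.68-fold in SYK-WT cells (0.49 ± 0.126). These EGF calls were fragile: that in SYK-KO cells ended without any 1 of the SYK-KO, SYK-WT EGF or SYK-KO EGF libraries (0.44 to 0.64), and that in SYK-WT cells without SYK-WT replicate 2 (0.32) or either SYK-WT EGF library (0.47 and 0.51). The SYK-KO call of TFPI also ended at a pseudocount of 0.1 (0.61) and when loci at any level were fitted (0.54). Its SYK-WT call also ended when loci at any level were fitted, with library quality weights and with only those groups fitted (0.49 each). In SYK-WT cells the level rests on about 30 to 50 fragments per library.

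**Figure D3:**
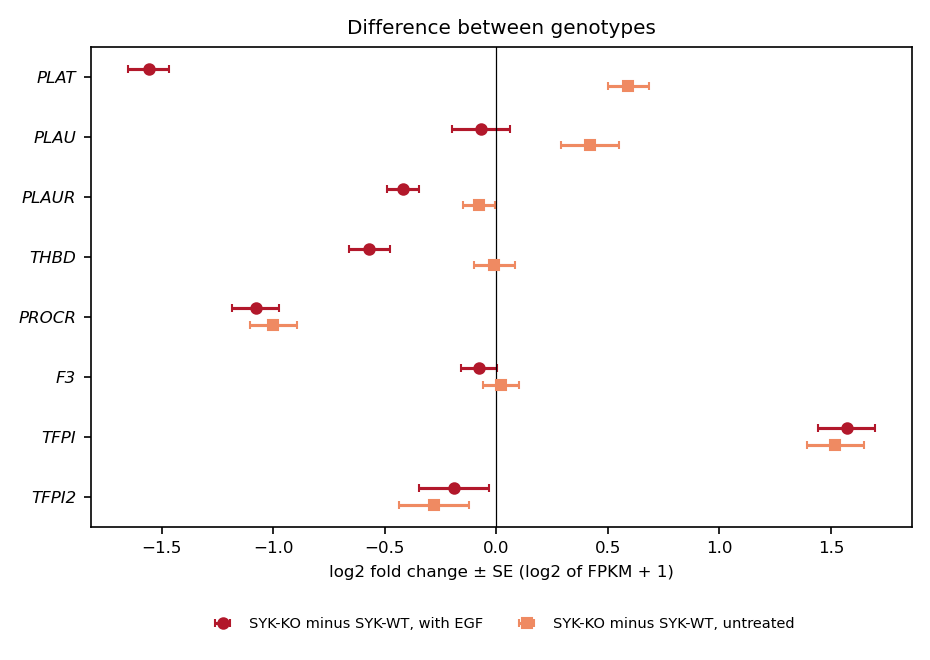
Log2 fold change of SYK-KO over SYK-WT cells ± SE for the 8 measured members, with EGF (circles) and untreated (squares), on the scale of FPKM + 1. PROCR lies below 0 and TFPI above it in both states, PLAT lies at -1.56 with EGF and 0.59 untreated, and F3 lies within 0.08 of 0.

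F3 encodes tissue factor, the cell-surface receptor for factor VIIa (chromosome 1, 94994731 to 95007413, hg19). It stood at 273.9 and 273.3 FPKM in SYK-KO EGF cells, 271.7 and 264.1 FPKM in SYK-KO cells, 299.5 and 279.4 FPKM in SYK-WT EGF cells and 285.7 and 245.9 FPKM in SYK-WT cells. The 8 libraries thus spanned only 245.9 to 299.5 FPKM, and the order of the groups was not larger than the spread of the SYK-WT pair. None of its differences was past the threshold with all libraries: 0.03 ± 0.0808 for EGF in SYK-KO, 0.13 ± 0.0808 for EGF in SYK-WT, -0.08 ± 0.0808 between genotypes with EGF and 0.02 ± 0.0808 without. The EGF change in SYK-WT cells was past it without SYK-WT replicate 1 (0.23). F3 held AP-1 letters in its window, and its transcript was nearly level. PLAUR held them and rose with EGF. TFPI2 held them and was 1.5-fold higher with EGF in SYK-KO and 1.39-fold in SYK-WT cells. PLAU rose with EGF with none in either window. The letter search covered only the windows named above, and none was read for PLAT or THBD. AP-1 binding was not measured, and a role of AP-1 in the EGF changes was not tested.

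TFPI2, a relative of TFPI that inhibits plasmin and other serine proteases, was the second most abundant member (chromosome 7, 93514708 to 93522897, hg19). It stood at 714.9 and 652.5 FPKM in SYK-KO EGF cells, against 473.1 and 438.5 FPKM in SYK-KO cells, and at 825.4 and 738.6 FPKM in SYK-WT EGF cells, against 664.2 and 458.7 FPKM in SYK-WT cells. Treated libraries lay above the untreated ones of their genotype, while SYK-WT overlapped both SYK-KO and SYK-KO EGF. The ratio with EGF was 1.5 in SYK-KO (0.58 ± 0.157, not past the threshold) and 1.39 in SYK-WT cells (0.50 ± 0.157, past it). Leaving out SYK-WT replicate 1 gave 0.77, and leaving out replicate 2 gave 0.23, where the call ended, and that pair is the widest of the gene. The call in SYK-WT cells also ended in 7 of the 8 fits that left out 1 library, while that in SYK-KO cells was gained without either SYK-WT library and with the replicate block. The SYK-WT call ended too when loci at any level were fitted, with library medians equalised and without the trend. Library quality weights or a fit of only the groups compared ended it as well. Both of these gained the SYK-KO call, as did a filter of 5 FPKM. The difference of the EGF responses, 0.08 ± 0.222, was not past the threshold. The locus shares its span with the divergent transcript TFPI2-DT, listed at 2.39 to 5.51 FPKM.

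SERPINB2, plasminogen activator inhibitor type 2, was listed at 0 FPKM in all 8 libraries (chromosome 18, 61554938 to 61571124, hg19). It was not tested. Its window held AP-1 letters and a TATAAA, as printed above.

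Ratios within a library compare transcripts per length without the scaling between libraries. PLAU over PLAT was 431.7 and 448.7 in SYK-KO EGF cells, against 263.9 and 242.1 in SYK-KO cells, and 135.4 and 144.0 in SYK-WT EGF cells, against 351.5 and 312.2 in SYK-WT cells. With EGF this ratio was thus higher in SYK-KO cells and lower in SYK-WT cells, with no overlap between treated and untreated libraries of a genotype. THBD over F3 was 0.187 and 0.175 in SYK-KO EGF cells, against 0.0226 and 0.0204 in SYK-KO cells, and 0.245 and 0.266 in SYK-WT EGF cells, against 0.0221 and 0.0216 in SYK-WT cells. TFPI2 over TFPI lay between 74.3 and 80 in the 4 SYK-KO libraries and between 323.4 and 414.3 in the 4 SYK-WT libraries. F3 over TFPI2 lay between 0.363 and 0.602 in all 8 libraries, with both EGF-treated groups below the untreated one of their genotype. These ratios are descriptions of transcript levels and were not tested.

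**Figure D4:**
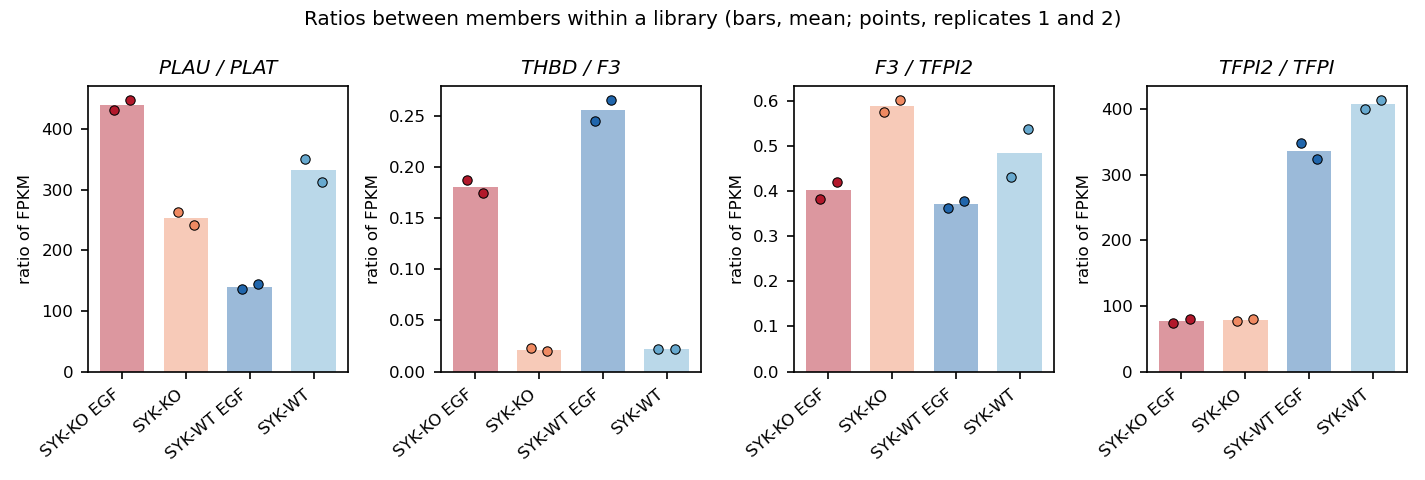
Ratio of FPKM between pairs of members within a library in SYK-KO EGF, SYK-KO, SYK-WT EGF and SYK-WT cells (linear axes from 0; bars, mean; points, replicates 1 and 2). PLAU over PLAT was highest in SYK-KO EGF cells (431.7 and 448.7) and lowest in SYK-WT EGF cells (135.4 and 144.0).

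The genotype comparisons as a whole gave 5 of 8 members past the threshold with EGF, 1 higher and 4 lower, where 43.6% of all loci were called (21.1% higher, 22.5% lower). Untreated, 4 of 8 were past it, 3 higher and 1 lower, where 40.5% of all loci were called (20.3% higher, 20.2% lower). The difference of the EGF responses was past it for PLAT, the 1 locus called among all tested (0.00826%). In the authors' deposited table, q-values under 0.05 were listed for 5 of the 8 between genotypes with EGF (24% of all tested loci), for 4 untreated (21.5%) and for 6 with EGF in SYK-WT cells (15.2%). Nothing is read from these counts either. Comparisons of the 2 states or genotypes share libraries in pairs, so overlaps between them were not counted.

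Within groups, the members also shared an offset between replicates. Replicate 2 was lower than replicate 1 for 8 of 8 members in SYK-KO EGF cells, 8 of 8 in SYK-KO cells, 5 of 8 in SYK-WT EGF cells and 7 of 8 in SYK-WT cells. The median log2 difference of the members, replicate 1 minus 2, was 0.15, 0.15, 0.03 and 0.22 in that order. Over all tested loci the same median lay between -0.0067 and -0.0022. The part of this offset in the differences between groups was not tested beyond leaving out each library.

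Other genes of the same systems were read from 5 lists, which were chosen with earlier results of these data known. Up to 4 genes with the smallest adjusted p of each list are named. Their adjusted p-values come from the tests that selected them and are not independent evidence. Of 18 further genes of the plasminogen system 10 were tested, and EGF raised 3 in SYK-KO cells and 5 in SYK-WT cells, with none lowered, where 6.67% of all loci were called higher in SYK-KO and 14.7% in SYK-WT. The median change of the list was 0.26 and 0.39, against 0.001 and 0.008 over all loci. SERPINE2, protease nexin 1, an inhibitor of urokinase and thrombin, stood at 89.5 and 81.3 FPKM in SYK-KO EGF cells, against 41.1 and 39.8 FPKM in SYK-KO cells, and at 54.4 and 57.7 FPKM in SYK-WT EGF cells, against 15.7 and 13.3 FPKM in SYK-WT cells. It rose with EGF by 1.06 ± 0.0889 in SYK-KO (limma adjusted p = 0.000581) and by 1.88 ± 0.0889 in SYK-WT cells (2.76e-05). It was also higher in SYK-KO cells with EGF (0.60 ± 0.0889, limma adjusted p = 0.00166) and untreated (1.42 ± 0.0889, limma adjusted p = 3.86e-05). Its difference of EGF responses, -0.83, was not past the threshold with all libraries (limma adjusted p = 0.138). It was past it without SYK-WT replicate 1 (-0.94) or replicate 2 (-0.71), in fits that called more of all loci. ANXA2 and S100A10 form the annexin complex that binds plasminogen on cells. ANXA2 rose to 1076.4 and 993.5 FPKM in SYK-WT EGF cells, against 520.7 and 575.1 FPKM in SYK-WT cells (0.92 ± 0.0741, limma adjusted p = 0.000266), and S100A10 by 0.56 ± 0.0589 (limma adjusted p = 0.000709). In SYK-KO cells their changes were 0.49 and 0.29, and both calls ended in 3 and 4 of the fits without 1 library. Their differences of responses, -0.43 and -0.27, were not past the threshold (limma adjusted p = 0.343 and 0.435). SERPINI1, neuroserpin, an inhibitor of tissue-type activator, stood at 1.22 to 1.64 FPKM in SYK-KO libraries with or without EGF and 0.198 to 0.643 FPKM in SYK-WT libraries. Since it passed the filter through the SYK-KO libraries alone, its genotype differences (0.76 with EGF, 0.84 untreated) are a description, with no test. Between genotypes the list gave 4 higher and 2 lower with EGF and 5 higher and 0 lower untreated. The shares of all loci called were 43.6% and 40.5%.

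Among 14 partners of the urokinase receptor, 11 were tested. EGF raised 1 and lowered 2 in SYK-KO cells, where 11.8% of all loci were called. It raised 2 and lowered 4 in SYK-WT cells, where 26.7% were called. The list medians were -0.03 and -0.26, against 0.001 and 0.008 over all loci. ITGA5, the integrin alpha 5 chain that pairs into the fibronectin receptor, stood at 28.2 and 29.6 FPKM in SYK-KO EGF cells, against 10.5 and 9.73 FPKM in SYK-KO cells (1.43 ± 0.0709, limma adjusted p = 9.33e-05). In SYK-WT EGF cells it stood at 26.1 and 28.3 FPKM, against 8.87 and 8.97 FPKM in SYK-WT cells (1.51 ± 0.0709, limma adjusted p = 2.76e-05). Between genotypes, ITGB3, the integrin beta 3 chain, was higher in SYK-KO cells with EGF (1.90 ± 0.217, limma adjusted p = 0.000524) and untreated (1.16 ± 0.217, 0.00464). The proteoglycan SDC1 was lower, by a log2 change of -0.61 with EGF and -0.71 untreated (limma adjusted p = 0.000653 and 0.000367). The collagen and urokinase receptor-associated protein MRC2 reached 1 FPKM only in SYK-KO libraries, and its differences of 0.79 with EGF and 0.66 untreated are likewise a description. The list gave 5 higher and 3 lower with EGF and 4 higher and 2 lower untreated. These comparisons called 43.6% and 40.5% of all loci.

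Of 23 coagulation factors and inhibitors 5 were tested, 15 lay below the filter and 3 were listed at 0. FGB, the fibrinogen beta chain, stood at 1.60 and 1.92 FPKM in SYK-KO EGF cells, against 4.57 and 4.26 FPKM in SYK-KO cells, and at 0.0999 and 0.0801 FPKM in SYK-WT EGF cells, against 0.391 and 0.304 FPKM in SYK-WT cells. It fell with EGF in SYK-KO cells (-0.97 ± 0.0922, limma adjusted p = 0.000924). FGB passed the filter through the SYK-KO libraries alone, so its genotype differences, 1.34 with EGF and 2.01 untreated, carry no test. Its call for EGF in SYK-WT cells (-0.31) ended in 7 of the 8 fits without 1 library. ANXA5, which covers procoagulant lipid, rose with EGF in SYK-WT cells by 0.43 ± 0.0664 (limma adjusted p = 0.00364) and had 0.11 in SYK-KO cells (0.329). The difference of these responses, -0.32, was not past the threshold (limma adjusted p = 0.43). F12, factor XII, was higher in SYK-KO cells with EGF by 0.40 (limma adjusted p = 0.0127). The call was lost without replicate 1 of SYK-KO EGF (limma adjusted p = 0.0857) or either SYK-WT EGF library (0.0631 and 0.0673).

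Of 7 genes of the protein C pathway and thrombin receptors 4 were tested. The thrombin receptor gene F2R stood at 12.9 and 13.3 FPKM in SYK-KO EGF cells and 20.5 and 20.6 FPKM in SYK-WT EGF cells (-0.61 ± 0.0888, limma adjusted p = 0.00153). Untreated it stood at 11.6 and 11.0 FPKM in SYK-KO cells and 17.4 and 20.9 FPKM in SYK-WT cells (-0.71 ± 0.0888, limma adjusted p = 0.000852), so that F2R was lower in SYK-KO cells in both states. F2RL1, the receptor cut by trypsin-like proteases, rose with EGF by 0.66 in SYK-KO cells and 0.55 in SYK-WT cells (limma adjusted p = 0.00786 and 0.00845) and differed by -0.53 between untreated SYK-KO and SYK-WT cells (limma adjusted p = 0.00617). The EGF calls of F2RL1 ended in 3 fits without 1 library in SYK-KO cells and in 1, without SYK-WT EGF replicate 1, in SYK-WT cells. GAS6, a vitamin K-dependent ligand of AXL-family receptors, was higher in untreated SYK-KO cells by 0.55 (limma adjusted p = 0.0309). That call ended without SYK-WT replicate 2 (0.29, limma adjusted p = 0.0722), without either SYK-KO library (limma adjusted p = 0.163 and 0.0668) and without either SYK-WT EGF library (0.053 and 0.0531).

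Of 12 clade B serpins, the family of SERPINB2, 5 were tested, 5 lay below the filter and 2 were listed at 0. EGF raised 3 in SYK-KO cells and 4 in SYK-WT cells and lowered none, where 6.67% and 14.7% of all loci were called higher. The list medians were 0.35 and 0.55, against 0.001 and 0.008 over all loci. SERPINB1, an inhibitor of neutrophil proteases, stood at 54.8 and 50.8 FPKM in SYK-KO EGF cells, against 17.8 and 17.4 FPKM in SYK-KO cells (1.53 ± 0.0644, limma adjusted p = 4.81e-05). In SYK-WT EGF cells it reached 95.9 and 92.5 FPKM, against 21.4 and 20.6 FPKM in SYK-WT cells (2.11 ± 0.0644, limma adjusted p = 6.44e-06). With EGF it was lower in SYK-KO cells (-0.82 ± 0.0644, limma adjusted p = 0.000106). Its difference of responses, -0.58, was not past the threshold with all libraries (limma adjusted p = 0.143). It was past it without SYK-WT replicate 1 (-0.61), in a fit that called more of all loci. SERPINB9, an inhibitor of granzyme B, was lower in SYK-KO cells with EGF by a log2 change of -0.55 (limma adjusted p = 0.00232). SERPINB5, maspin, reached 1 FPKM only in SYK-KO libraries, and its differences of 0.84 with EGF and 0.69 untreated are given without a test. SERPINB6 was higher in untreated SYK-KO cells by 0.67 (limma adjusted p = 0.00343). Between genotypes the family gave 3 higher and 2 lower with EGF, and 3 higher and 2 lower untreated. Of all loci, 43.6% and 40.5% were called in these comparisons.

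**Figure D5:**
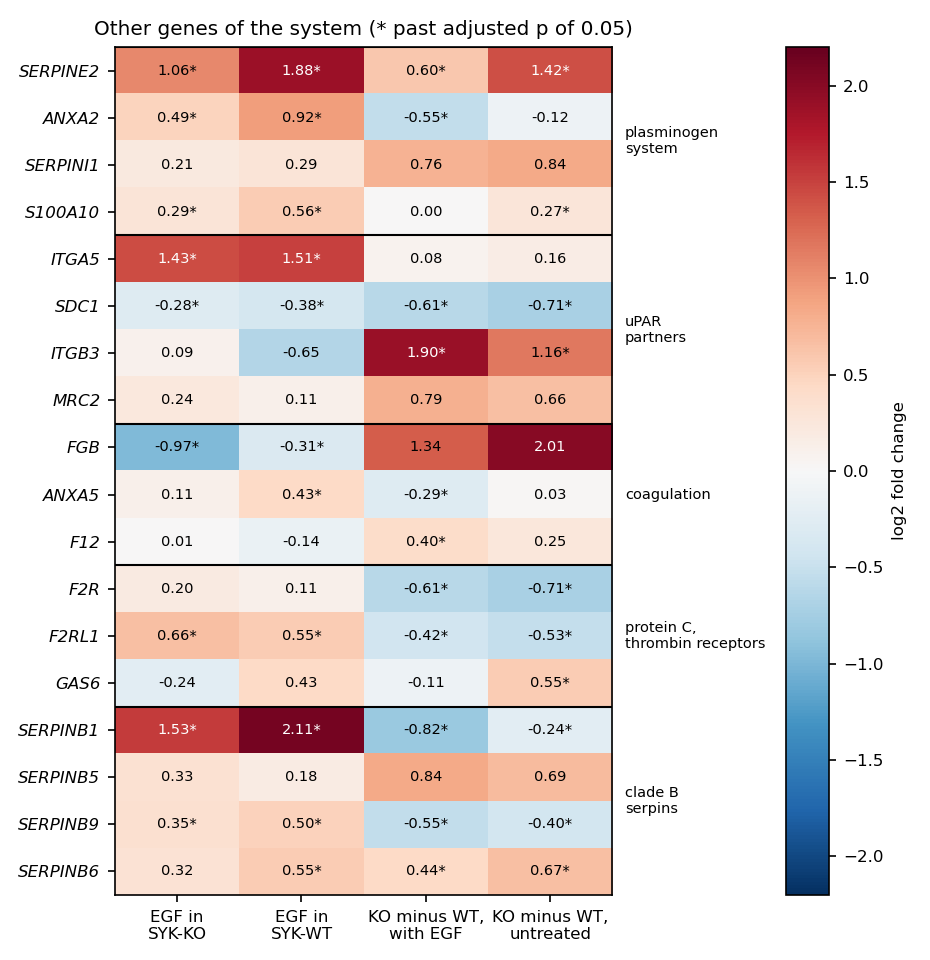
Log2 fold change of 18 other genes of the system for EGF in SYK-KO, EGF in SYK-WT, SYK-KO over SYK-WT with EGF and SYK-KO over SYK-WT untreated, on the scale of FPKM + 1; an asterisk marks a limma adjusted p under 0.05 over all loci, and SERPINI1, MRC2, FGB and SERPINB5 carry none between genotypes because they passed the filter through SYK-KO libraries alone. SERPINB1, SERPINE2 and ITGA5 are starred with EGF in both genotypes, and SERPINE2 and ITGB3 are starred as higher in SYK-KO cells in both states.

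For the 35 list genes tested together, EGF raised 8 and lowered 3 in SYK-KO cells, where 11.8% of all loci were called, and raised 13 and lowered 5 in SYK-WT cells, where 26.7% were called. Leaving out 1 library changed both counts, and the share of all loci called changed in those fits too. Between genotypes, 14 were higher and 10 lower in SYK-KO cells with EGF (43.6% of all loci called), and 14 were higher and 6 lower untreated (40.5%). The untreated total of 20 fell without SYK-KO replicate 1, and so did the share of all loci called. These counts include 5 genes that reached 1 FPKM in SYK-KO libraries alone (SERPINA5, SERPINI1, MRC2, FGB and SERPINB5), of which 5 were called higher with EGF and 4 untreated. SERPINA5 was named after its values were seen. The difference of the EGF responses was past the limma threshold for 0 of 35, and 9 had an unadjusted p under 0.05. It was past it for 5 without SYK-WT replicate 1 and for 1 without SYK-WT replicate 2.

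Genes whose level followed PLAT and THBD most closely over the 8 libraries were found among 8295 loci of at least 5 FPKM in the highest group, by Pearson correlation of log2 values, as a description over libraries that share 4 conditions. For PLAT these were METRNL, a secreted meteorin-like protein (r = 0.984), the quinone reductase NQO2 (0.975), the cilium protein BBS2 (0.972) and the non-coding RNA LINC00857 (0.971). NQO2 stood at 33.9 and 32.2 FPKM in SYK-KO EGF cells, against 27.0 and 23.5 FPKM in SYK-KO cells, and at 50.8 and 49.8 FPKM in SYK-WT EGF cells, against 24.3 and 24.5 FPKM in SYK-WT cells. The correlation does not measure the size of a change, and BBS2 spanned only 12.6 to 15.8 FPKM. LINC00857 stood at 7.93 and 7.89 FPKM in SYK-KO EGF cells, against 7.9 and 7.98 FPKM in SYK-KO cells. In SYK-WT EGF cells it stood at 9.05 and 8.99 FPKM, against 7.19 and 7.28 FPKM in SYK-WT cells. For THBD they were PLAUR itself (r = 0.996), the small GTPase RAP2B (0.996) and the immediate early gene IER5 (0.995).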

How the data were processed

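RNA of 8 OVISE libraries, 2 in each of 4 groups named in the sample titles, was sequenced as paired ends. FPKM values per locus and library, and q-values of 3 comparisons, are those the authors deposited. The submitters' processing notes name TopHat, Cufflinks, the build hg19 and Cuffdiff (2.2.1.3). No source used here gives parameters, scaling between libraries or strand, so overlapping and antisense transcripts are uncertain. Symbols were matched for 27541 of 27757 loci (99.2%) through RefSeq and GENCODE 29.

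The 12112 loci that reached 1 FPKM in 2 or more libraries were fitted as log2(FPKM + 1) with limma (3.58.1, R 4.3.3), using trended prior variances and 1 mean per group, with 4 residual and 3.87 prior degrees of freedom. Two-sided p-values were Benjamini-Hochberg adjusted over all loci, threshold 0.05. Estimated fragments hold only if the authors divided by the fragments of the same library. The fit was tested on simulated data. Members and lists were chosen with earlier results of these data known. Named are all 9 members, SYK and EGFR, up to 4 genes with the smallest adjusted p of each of 5 lists, and the 4 genes most like PLAT and THBD, of which 1 is not reported here. Alternatives changed the pseudocount, filter, scaling, groups fitted, trend, library weights, replicate block and libraries.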

Additional observations from a re-analysis of the deposited data

Results flagged for a closer look

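The EGF response of PLAT differed between the genotypes by -2.15 on the log2 scale, SYK-KO minus SYK-WT, in a test of the difference itself. The EGF change was 0.43 in SYK-KO cells and 2.58 in SYK-WT cells. PLAT was proposed with this result known, and its value is given as a description.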

How the results depend on the processing

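Of 632 recomputed log2 fold changes of members, 583 kept their side of the threshold (12 of them, not called, moved by more than their SE), 40 lost a call, 9 gained one and 0 turned a called direction round. Over the alternatives at the same pseudocount, PLAT's difference of EGF responses lay between -2.25 and -2.05. The number of members called for EGF in SYK-KO cells was 3 in place of 5 with no filter on low values. That fit called 5.79% of all loci in place of 11.8%. Leaving out 1 library in turn gave 3 to 6 members called for EGF in SYK-KO, 4 to 7 for EGF in SYK-WT, 5 to 5 between genotypes with EGF, 3 to 4 untreated and 0 to 2 for the difference of the responses, with 0 without SYK-WT EGF replicate 1. For the list genes the ranges were 4 to 17 for EGF in SYK-KO, 10 to 26 for EGF in SYK-WT, 16 to 24 between genotypes with EGF, 11 to 23 untreated and 0 to 5 for the difference. The list counts for EGF in SYK-KO, 11 with all libraries, were 17 without either SYK-WT library, 6 and 4 without SYK-KO replicates 1 and 2, and 5 and 4 without SYK-KO EGF replicates 1 and 2. That for EGF in SYK-WT, 18, was 10 without SYK-WT EGF replicate 1, and that untreated, 20, was 11 without SYK-KO replicate 1. The low counts for EGF in SYK-KO (3 members) came without either SYK-KO library, either SYK-WT EGF library or SYK-KO EGF replicate 1, and the causes were not tested. The share of all loci called for EGF in SYK-KO rose without either SYK-WT library and fell in the other fits named here for that comparison. It also fell for EGF in SYK-WT without SYK-WT EGF replicate 1, and untreated without SYK-KO replicate 1. The counts of members and list genes are therefore not read apart from that share. A group left with 1 library is assumed to vary like the others. The fit with only the groups of a contrast has no value for the difference, which uses all 4 groups.

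Replicate numbers pair no samples by the labels. Differences between replicates correlated across loci from -0.381 to 0.27 between groups. With the replicate block, 6 members were called for EGF in SYK-KO (13.6% of all loci) and 6 for EGF in SYK-WT (29.9%). Between genotypes it called 5 with EGF (47% of all loci) and 4 untreated (43.4%). For the difference it called 1 (0.00826%).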
